A study of Homo sapiens with 12 samples.

Results

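A set of 30 protein-coding genes doubled their level under selinexor in both of the diffuse large B-cell lymphoma lines studied, and they are described here. They are 30 of the 6051 expressed protein-coding genes outside the clustered histone genes, and of 58302 genes in the table. A gene counted as expressed where the mean of its FPKM values (read fragments scaled to gene length and library total) reached 5 in at least 1 of the 4 groups. A gene was taken where the mean with selinexor plus 0.5 was 2 or more times the untreated mean plus 0.5 in OCI-LY3 and also in SU-DHL6. These genes were thus chosen by the treated and untreated FPKM values of both lines, and their ratios are given below as a description with no test.

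The groups were OCI-LY3 cells with selinexor, untreated OCI-LY3 cells, SU-DHL6 cells with selinexor and untreated SU-DHL6 cells, with 3 RNA sequencing libraries each. All cells are labelled wild type. Per the labels, the established line OCI-LY3 stands for the activated B-cell class of the disease and the established line SU-DHL6 for the germinal centre B-cell class, with 1 line per class. Concentrations of 300 and 100 nM selinexor, durations of 24 and 48 h and media with 10 and 20% serum are given in the protocols, and none is tied to a library. Dose, time and line can therefore not be told apart in any comparison between the lines. The design text speaks of biological triplicates but not of separate cultures, so p-values measure the spread between these libraries, which may be technical.

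Selinexor binds the export receptor XPO1 in its cargo-binding groove and holds proteins that carry a nuclear export signal, among them tumour suppressors and transcription regulators, inside the nucleus. XPO1 transcripts are known to increase in cells given such compounds. XPO1 itself is not among the 30 genes: it had 14.4, 13.5 and 15.6 FPKM in treated OCI-LY3, against 8.06, 8.18 and 7.52 FPKM in untreated OCI-LY3, a ratio of 1.78, and its ratio in SU-DHL6 was 3.88.

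Library totals ranged from 14210200 to 16405842 counts. Replicate 1 of untreated SU-DHL6 lay away from its group on principal component 4, with a score of 26.0 against -10.8 and -8.72 in the other untreated SU-DHL6 libraries. Without it, 32 genes met the rule, and all 30 were among them. Of the B-cell markers, CD79A averaged 199 FPKM in treated and 213 FPKM in untreated OCI-LY3, and 585 FPKM in treated and 616 FPKM in untreated SU-DHL6. The B-cell factor PAX5 averaged 87.95 FPKM in treated and 66.9 FPKM in untreated OCI-LY3, and 43.96 FPKM in treated and 32.8 FPKM in untreated SU-DHL6, and CD79B and MS4A1 averaged over 1 FPKM in each group. No epithelial or erythroid marker reached 1 FPKM, and 1 of 5 T-cell, fibroblast and myeloid markers each did, in OCI-LY3 (CD5, COL1A1 and ITGAM). In bulk libraries like these, fewer cells with a transcript and less of it per cell cannot be told apart.

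Doubling in both lines was rare. In OCI-LY3, 251 of the 6051 expressed genes (4.15%) had a ratio of 2 or more, and in SU-DHL6 396 (6.54%) did. The 30 shared genes are 0.496% of the expressed genes, 11.95% of those doubled in OCI-LY3 and 7.58% of those doubled in SU-DHL6. The other genes doubled in OCI-LY3 had a median ratio of 1.06 in SU-DHL6, and the others doubled in SU-DHL6 had a median ratio of 0.973 in OCI-LY3. A ratio of 0.5 or less in both lines was found for 192 genes, of 475 in OCI-LY3 and 346 in SU-DHL6, and 13 genes were doubled in OCI-LY3 with a ratio of 0.5 or less in SU-DHL6, as 13 were in the opposite sense.

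**Figure D1:**
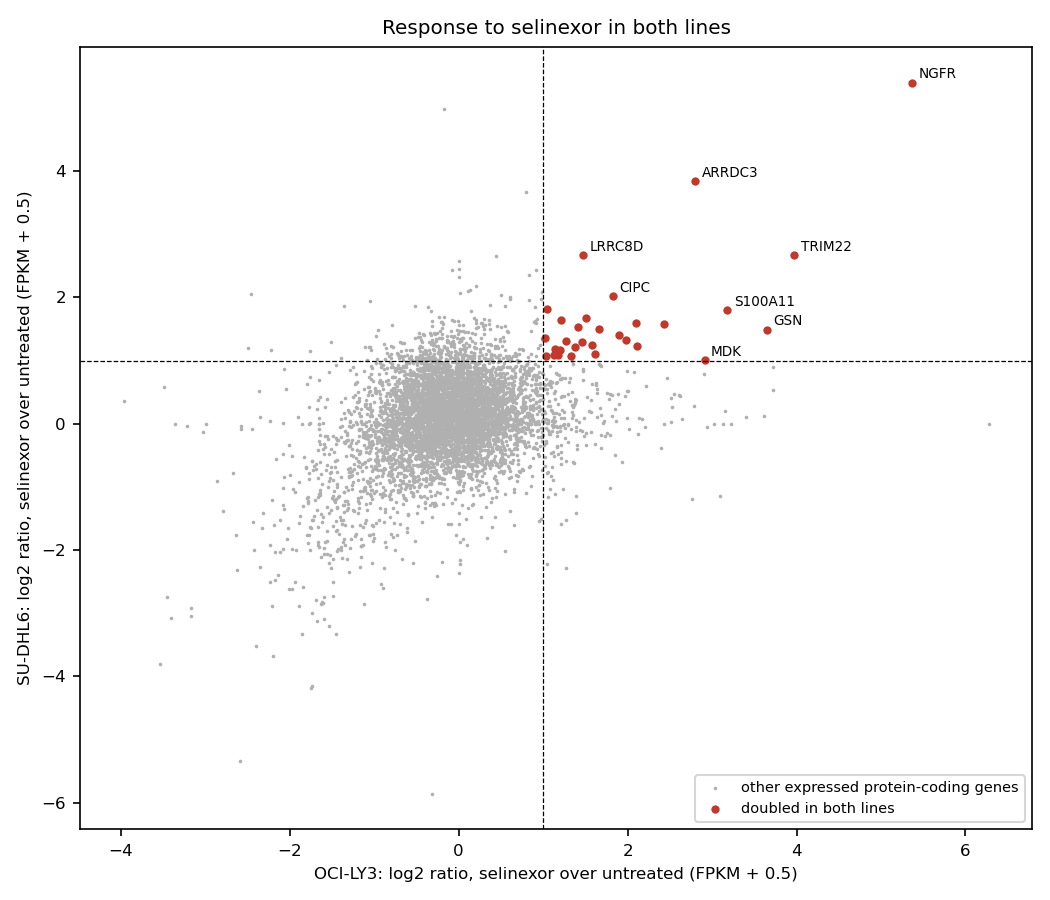
Ratio of selinexor-treated over untreated cells on a log2 scale, OCI-LY3 across and SU-DHL6 upward, for each expressed protein-coding gene outside the histone clusters (group mean FPKM plus 0.5); red points are the 30 genes, dashed lines mark a ratio of 2. NGFR lies far from the others at 41.4 in OCI-LY3 and 42.2 in SU-DHL6, and most of the 30 lie near the lines.

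The median ratio of the 30 genes was 2.92 in OCI-LY3 and 2.61 in SU-DHL6, against 0.932 and 1.09 over all expressed genes. Only 6 of them had a ratio of 3 or more in both lines: NGFR, ARRDC3, TRIM22, CIPC, S100A11 and MVP. The ratio was larger in OCI-LY3 for 18 genes and in SU-DHL6 for 12. The 0.5 added for low genes and the scaling of the libraries both bear on this order. In the fit on counts described below, with TMM factors, MDK and SH3TC1 among the 18, and 6 of the 12, had a difference of the opposite sign. With library totals, C15orf62 (-0.20), CIPC (-0.28), LGALS1 (-0.08) and VAMP2 (-0.11) among these 6 had the sign of their ratios. MDK, SH3TC1, AL662899.2 and FAM13B still had the opposite sign. In 29 of the 30 genes every treated library lay above every untreated library of its line in both lines, which 12.5% of all expressed genes also did. The exception was AL662899.2. Both untreated means were under 5 FPKM for 16 of the genes, while 22 had at least 1 FPKM in all 4 groups. The rule used these means and the shares over all expressed genes were not worked out, so nothing is read from these counts.

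**Figure D2:**
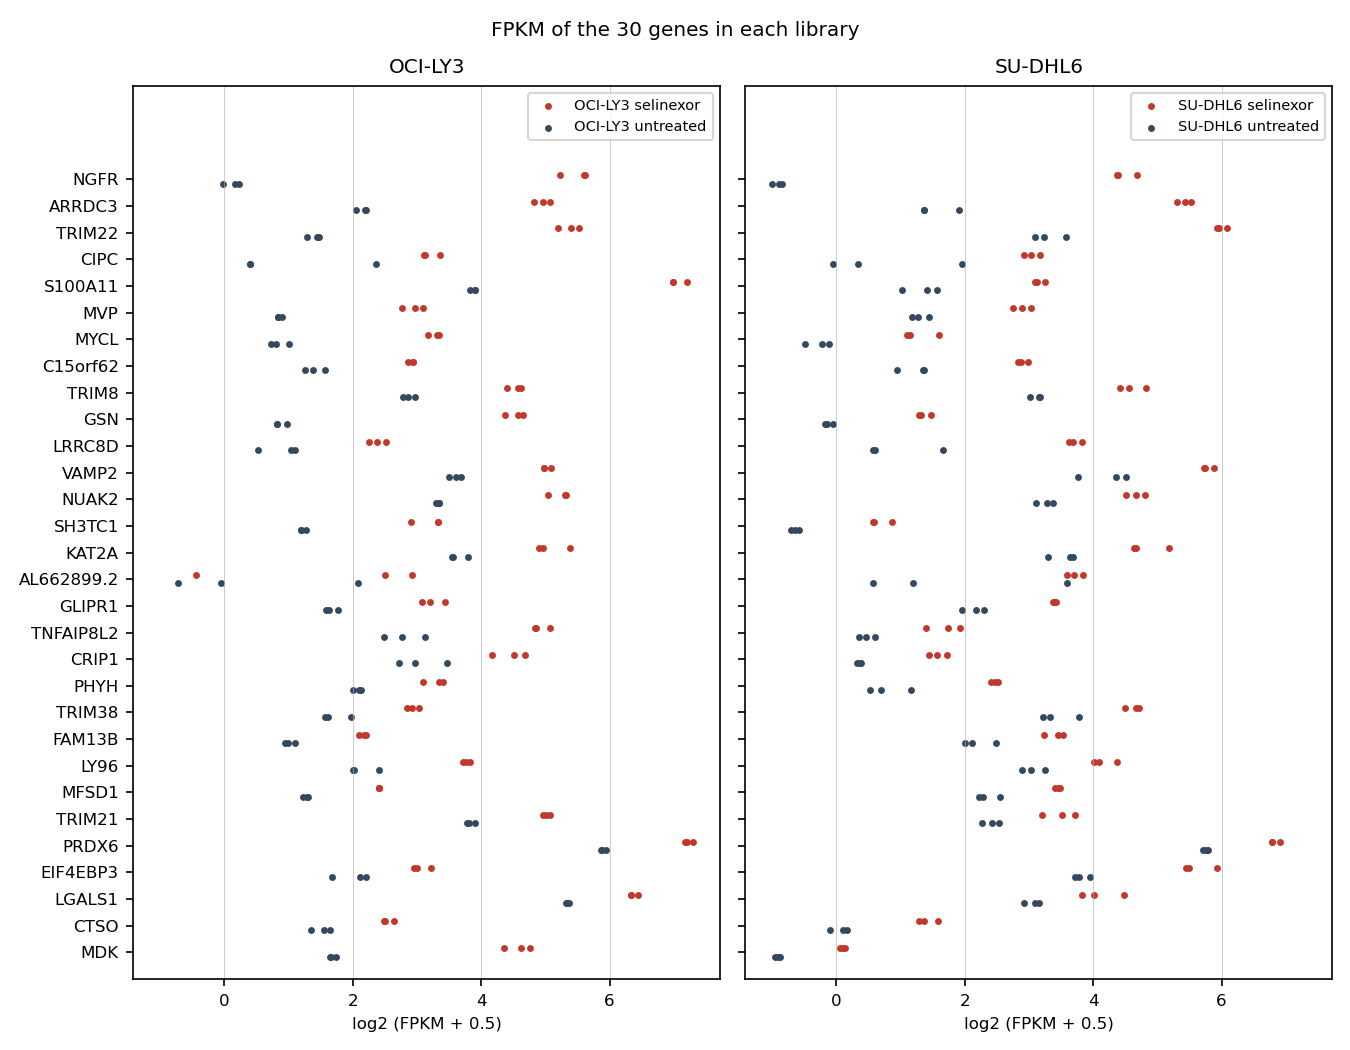
Level of the 30 genes in each of the 12 libraries as log2 of FPKM plus 0.5, with OCI-LY3 on the left and SU-DHL6 on the right; red points are selinexor-treated and dark points untreated libraries, and genes run from the largest to the smallest of their lesser ratio. Treated points lie to the right of untreated ones in every row but AL662899.2, whose OCI-LY3 libraries mix.

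Among receptors and secreted proteins, NGFR had the largest ratios. NGFR encodes the low-affinity neurotrophin receptor, a member of the TNF receptor superfamily. It had 48.8, 48.3 and 37.0 FPKM in treated OCI-LY3, against 0.669, 0.486 and 0.624 FPKM in untreated OCI-LY3. It had 20.4, 20.2 and 25.2 FPKM in treated SU-DHL6, against 0.0574, 0.0373 and 0 FPKM in untreated SU-DHL6. The untreated SU-DHL6 values rest on 0 to 4 counts, so the 0.5 FPKM added to both means sets its ratio of 42.2 there. An opposite-strand gene at the locus, AC006487.1, averaged 0.511 FPKM in treated and was at 0 in untreated OCI-LY3, and averaged 0.586 FPKM in treated and was at 0 in untreated SU-DHL6, on at most 14 counts in any library.

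MDK encodes midkine, a heparin-binding growth factor. It had 26.7, 20.1 and 24.0 FPKM in treated OCI-LY3, against 2.83, 2.65 and 2.63 FPKM in untreated OCI-LY3, a ratio of 7.52. In SU-DHL6 it was under 1 FPKM throughout, at 0.576, 0.547 and 0.599 FPKM in treated cells, against 0.0337, 0.0194 and 0.0449 FPKM in untreated cells. There it had 53 to 57 counts in treated and 2 to 4 counts in untreated libraries, so the 0.5 FPKM added to both means sets its ratio of 2.02 there. In the fit on counts, the log2 response of MDK in OCI-LY3 minus that in SU-DHL6 was -0.60 ± 0.32 (SE) with TMM factors and -0.98 ± 0.32 with library totals, so the fitted response was the larger one in SU-DHL6.

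LGALS1, which encodes the secreted lectin galectin-1, was abundant in OCI-LY3, with 80.4, 79.8 and 86.7 FPKM in treated and 40.7, 40.04 and 39.4 FPKM in untreated cells. In SU-DHL6 it had 21.8, 13.7 and 15.6 FPKM in treated and 7.07, 8.40 and 8.05 FPKM in untreated cells. Its ratios of 2.04 and 2.10 lie just over the threshold. LY96, the protein that lets Toll-like receptor 4 bind lipopolysaccharide, had ratios of 3.06 in OCI-LY3 and 2.14 in SU-DHL6. It had 13.1, 12.7 and 13.7 FPKM in treated and 3.52, 4.80 and 3.58 FPKM in untreated OCI-LY3. In SU-DHL6 LY96 had 20.1, 16.6 and 15.6 FPKM in treated and 7.65, 9.05 and 6.91 FPKM in untreated cells, above the OCI-LY3 libraries of the same state. GLIPR1, a member of the CAP protein family, had 7.93, 8.68 and 10.4 FPKM in treated and 2.90, 2.61 and 2.49 FPKM in untreated OCI-LY3. It had 10.2, 9.93 and 10.0 FPKM in treated and 4.43, 3.39 and 4.01 FPKM in untreated SU-DHL6. GLIPR1 shares 24.2% of its exon bases with KRR1 on the opposite strand, whose ratios were 0.920 and 1.78.

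Ubiquitin ligases of the TRIM family and an adaptor of such ligases formed the second group. TRIM22, an interferon-inducible antiviral ligase that is also a p53 target, had 36.2, 41.8 and 45.7 FPKM in treated OCI-LY3, against 2.23, 1.94 and 2.30 FPKM in untreated OCI-LY3. In SU-DHL6 it had 60.4, 61.5 and 67.2 FPKM in treated cells, against 11.5, 8.08 and 8.94 FPKM in untreated cells. Its ratios were 15.7 and 6.36. Taken as a ratio of SU-DHL6 over OCI-LY3, the untreated levels lay further apart than the treated ones. TRIM8, a ligase known to act on p53 and cytokine signalling, had 23.4, 24.2 and 20.7 FPKM in treated and 6.78, 6.35 and 7.36 FPKM in untreated OCI-LY3. TRIM8 in SU-DHL6 had 20.8, 23.1 and 27.9 FPKM in treated and 7.62, 8.50 and 8.46 FPKM in untreated cells. The treated libraries of both lines overlapped, and the untreated SU-DHL6 libraries lay slightly above those of OCI-LY3.

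The lincRNA AL391121.1 lies on the strand opposite TRIM8, where it shares 14.1% of the exon bases of TRIM8. It averaged 8.73 FPKM in treated and 1.94 FPKM in untreated OCI-LY3, and 9.59 FPKM in treated and 1.58 FPKM in untreated SU-DHL6. Its ratios were 3.79 and 4.86. The strand setting of the counting is not given in the sources used here, so reads of the shared stretch cannot be told apart.

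TRIM38, which restrains Toll-like receptor signalling, had 6.68, 7.10 and 7.69 FPKM in treated and 3.43, 2.48 and 2.58 FPKM in untreated OCI-LY3. In SU-DHL6 TRIM38 had 22.0, 25.8 and 25 FPKM in treated and 13.3, 9.52 and 8.78 FPKM in untreated cells. TRIM21, a ligase that binds antibody in the cytosol, had ratios of 2.26 and 2.11. Of 73 TRIM genes in the table, 18 were expressed, and these 4 were the only ones doubled in both lines. TRIM2 was doubled in OCI-LY3 alone, with a ratio of 2.46, and TRIM56 in SU-DHL6 alone. The median ratio of the 18 genes was 0.979 in OCI-LY3 and 1.19 in SU-DHL6. The family was looked at after its members among the 30 were known.

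**Figure D3:**
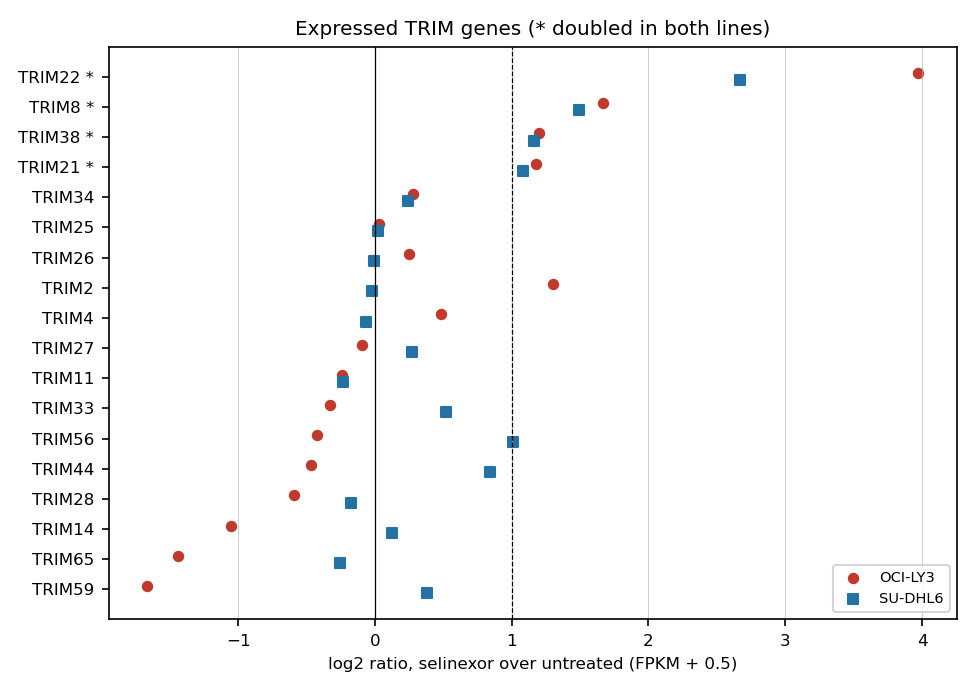
Ratio of selinexor-treated over untreated cells on a log2 scale for the 18 expressed TRIM genes (group mean FPKM plus 0.5), with OCI-LY3 as red circles and SU-DHL6 as blue squares; the dashed line marks a ratio of 2. The 4 genes with an asterisk lie to the right of it in both lines, and the other 14 spread on both sides of no change.

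ARRDC3 is an alpha-arrestin, an adaptor that recruits ubiquitin ligases to membrane receptors. It had 27.9, 30.6 and 33.0 FPKM in treated OCI-LY3, against 4.12, 4.06 and 3.66 FPKM in untreated OCI-LY3. It had 39.0, 45.4 and 42.6 FPKM in treated SU-DHL6, against 3.26, 2.09 and 2.08 FPKM in untreated SU-DHL6. The ratios were 6.97 and 14.4. Of the 4 expressed alpha-arrestins, TXNIP had ratios of 1.41 and 4.11, and ARRDC3 was the only one doubled in both lines.

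Another group is mixed, with genes of the cytoskeleton, membranes and calcium binding beside some with other roles or no role given here. GSN encodes gelsolin, which severs and caps actin filaments. It had 24.6, 23.4 and 20.2 FPKM in treated OCI-LY3, against 1.27, 1.28 and 1.48 FPKM in untreated OCI-LY3. In SU-DHL6 GSN had 2.01, 1.95 and 2.29 FPKM in treated cells, against 0.468, 0.401 and 0.389 FPKM in untreated cells. Its ratio was 12.6 in OCI-LY3 and 2.81 in SU-DHL6, the most unequal pair among the 30 genes.

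S100A11, a calcium-binding protein, had 127, 126 and 147 FPKM in treated OCI-LY3, against 14.5, 13.7 and 14.5 FPKM in untreated OCI-LY3. In SU-DHL6, S100A11 had 9.01, 8.27 and 8.03 FPKM in treated cells, against 2.48, 1.52 and 2.17 FPKM in untreated cells. The treated SU-DHL6 cells thus stayed under the untreated OCI-LY3 cells. The untreated SU-DHL6 values rest on 17 to 24 counts. S100A10, another of the 4 expressed S100 genes, had ratios of 1.98 in OCI-LY3 and 0.915 in SU-DHL6.

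MVP, the main protein of the vault particle, had treated libraries that overlapped between the lines. It had 7.33, 8.08 and 6.29 FPKM in treated and 1.28, 1.29 and 1.36 FPKM in untreated OCI-LY3. It had 7.69, 6.89 and 6.26 FPKM in treated and 1.77, 2.24 and 1.93 FPKM in untreated SU-DHL6. VAMP2, a SNARE protein of secretory vesicles, had 31.0, 33.4 and 31.0 FPKM in treated and 11.7, 10.8 and 12.4 FPKM in untreated OCI-LY3. VAMP2 had 52.6, 52.96 and 58.3 FPKM in treated and 13.0, 20.1 and 22.3 FPKM in untreated SU-DHL6. LRRC8D, a subunit of the volume-regulated anion channel, had a ratio of 2.78 in OCI-LY3 and 6.38 in SU-DHL6. In SU-DHL6 it had 12.4, 11.9 and 13.7 FPKM in treated cells, against 0.995, 2.68 and 1.01 FPKM in untreated cells, of which the second stands above the others. In OCI-LY3 it had 4.26, 4.70 and 5.22 FPKM in treated and 0.947, 1.64 and 1.55 FPKM in untreated cells.

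CRIP1, a small LIM-domain protein, had 17.4, 22.2 and 25.1 FPKM in treated and 6.09, 10.6 and 7.36 FPKM in untreated OCI-LY3. CRIP1 in SU-DHL6 had 2.80, 2.47 and 2.22 FPKM in treated and 0.751, 0.813 and 0.797 FPKM in untreated cells. TNFAIP8L2, a negative regulator of immune cell activation, had 28.5, 28.0 and 33.1 FPKM in treated and 6.31, 8.21 and 5.13 FPKM in untreated OCI-LY3. It had 3.29, 2.14 and 2.85 FPKM in treated and 0.777, 0.880 and 1.01 FPKM in untreated SU-DHL6, where untreated libraries had 13 to 17 counts. Both genes were well under their OCI-LY3 level in SU-DHL6. SH3TC1, named for its SH3 and tetratricopeptide domains, had 9.55, 9.51 and 7.01 FPKM in treated and 1.79, 1.91 and 1.79 FPKM in untreated OCI-LY3. It had 1.01, 0.988 and 1.32 FPKM in treated and 0.113, 0.138 and 0.167 FPKM in untreated SU-DHL6. FAM13B had the reverse order of lines, with 3.79, 4.001 and 4.13 FPKM in treated and 1.65, 1.44 and 1.499 FPKM in untreated OCI-LY3. In SU-DHL6 FAM13B had 8.91, 10.5 and 11.1 FPKM in treated and 5.14, 3.84 and 3.54 FPKM in untreated cells.

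The fourth group regulates transcription, translation and metabolic signalling. MYCL, a MYC family transcription factor, had 8.53, 9.48 and 9.64 FPKM in treated and 1.25, 1.16 and 1.51 FPKM in untreated OCI-LY3. MYCL had 1.71, 1.64 and 2.55 FPKM in treated and 0.356, 0.425 and 0.211 FPKM in untreated SU-DHL6. MYC itself, the other expressed family member, averaged 5.51 FPKM in treated and 11.5 FPKM in untreated OCI-LY3, and 1.39 FPKM in treated and 0.840 FPKM in untreated SU-DHL6. KAT2A, a histone acetyltransferase of the SAGA coactivator, had 30.8, 41.4 and 29.4 FPKM in treated and 11.3, 11.2 and 13.4 FPKM in untreated OCI-LY3. KAT2A had 24.3, 24.9 and 35.9 FPKM in treated and 11.99, 12.4 and 9.36 FPKM in untreated SU-DHL6. NUAK2, a kinase related to AMPK, had 39.7, 39.0 and 32.5 FPKM in treated and 9.67, 9.35 and 9.71 FPKM in untreated OCI-LY3. NUAK2 had 22.3, 24.8 and 27.5 FPKM in treated and 8.12, 9.87 and 9.25 FPKM in untreated SU-DHL6.

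CIPC, which represses the circadian CLOCK factor, is among the 6 genes with a ratio of 3 or more in both lines but has scattered untreated libraries. It had 8.18, 8.19 and 9.74 FPKM in treated OCI-LY3, against 4.64, 0.821 and 0.820 FPKM in untreated OCI-LY3. CIPC in SU-DHL6 had 7.65, 7.09 and 8.48 FPKM in treated cells, against 0.769, 0.468 and 3.38 FPKM in untreated cells. One untreated library of each line stood several times above the others.

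EIF4EBP3, a repressor that binds the cap-binding factor eIF4E, had 8.83, 7.50 and 7.26 FPKM in treated and 2.71, 3.83 and 4.12 FPKM in untreated OCI-LY3. EIF4EBP3 in SU-DHL6 had 60.3, 43.2 and 44.6 FPKM in treated and 12.6, 15 and 13.2 FPKM in untreated cells. The readthrough gene ANKHD1-EIF4EBP3 covers 73.4% of its exon bases and had ratios of 0.725 and 1.03, so how shared reads were assigned bears on this gene. Its relative EIF4EBP1 averaged 27.8 FPKM in treated and 85.9 FPKM in untreated OCI-LY3, and 71.0 FPKM in treated and 199 FPKM in untreated SU-DHL6.

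The last functional group holds enzymes and lysosomal proteins. PRDX6, a peroxiredoxin that reduces peroxides and oxidised phospholipids, was the most abundant of the 30 genes per length in treated cells. It had 144, 148 and 158 FPKM in treated OCI-LY3, against 58.4, 61.4 and 57.9 FPKM in untreated OCI-LY3. It had 120.1, 109.9 and 109.8 FPKM in treated SU-DHL6, against 52.1, 53.8 and 54.7 FPKM in untreated SU-DHL6. Of the 6 peroxiredoxins, all expressed, PRDX6 was the only one doubled in either line. PHYH, which starts the peroxisomal breakdown of phytanic acid, had 8.01, 10.2 and 9.61 FPKM in treated and 3.501, 3.89 and 3.76 FPKM in untreated OCI-LY3. PHYH had 5.24, 4.80 and 5.08 FPKM in treated and 1.74, 1.12 and 0.945 FPKM in untreated SU-DHL6. MFSD1, a lysosomal transporter, had ratios of 2.19 and 2.13. It had 4.84, 4.79 and 4.80 FPKM in treated and 1.97, 1.96 and 1.85 FPKM in untreated OCI-LY3, and in SU-DHL6 10.6, 10.5 and 10.1 FPKM in treated and 5.33, 4.36 and 4.15 FPKM in untreated cells. CTSO, a cysteine protease of the cathepsin family, had 5.15, 5.13 and 5.73 FPKM in treated and 2.45, 2.62 and 2.05 FPKM in untreated OCI-LY3. CTSO had 2.49, 1.95 and 2.07 FPKM in treated and 0.619, 0.433 and 0.571 FPKM in untreated SU-DHL6.

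The remaining genes have no well-known role. C15orf62 had 7.19, 7.20 and 6.77 FPKM in treated and 2.12, 1.90 and 2.46 FPKM in untreated OCI-LY3. It had 6.89, 6.60 and 7.44 FPKM in treated and 1.43, 2.08 and 2.05 FPKM in untreated SU-DHL6. AL662899.2 overlaps CSNK2B and LY6G5B and shares 73.2% of its exon bases with LY6G5B. It had 7.10, 5.15 and 0.234 FPKM in treated OCI-LY3, against 0.468, 3.73 and 0.110 FPKM in untreated OCI-LY3, so its libraries overlap. AL662899.2 in SU-DHL6 had 12.5, 11.6 and 13.8 FPKM in treated cells, against 11.6, 1.78 and 0.983 FPKM in untreated cells. Its values are uncertain for both reasons.

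Around the threshold the ratios ran on without a gap. MDK at 2.02 in SU-DHL6, CTSO at 2.03, LGALS1 at 2.04 and EIF4EBP3 at 2.06 in OCI-LY3 lay just inside. Just outside lay CYBB and DNAJA1, each at 1.98 in OCI-LY3, KLHL14 at 1.98 in SU-DHL6 and PREPL at 1.96 in OCI-LY3. Leaving out each library in turn gave 28 to 34 genes, and 23 of the 30 met the rule in all 12 cases. The other 7 were AL662899.2, CTSO, EIF4EBP3, LGALS1, MDK, LY96 and TRIM21.

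Scaling bears on the rule, since FPKM values divide by the library total. Comparisons of FPKM between the lines carry the same limit. TMM factors, which correct totals for genes that take a large share of reads, ran from 0.865 to 0.887 in treated and from 0.945 to 0.962 in untreated OCI-LY3, and from 1.17 to 1.23 in treated and from 0.974 to 1.04 in untreated SU-DHL6. With FPKM rescaled by them, 31 genes met the rule, of which 22 were among the 30. FAM13B, LGALS1, LY96, MDK, MFSD1, PRDX6, TRIM21 and TRIM38 then had a ratio under 2 in a line.

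Beyond the response, the level of the 30 genes was compared between the lines. The line average, the mean of the treated and untreated log2 levels in OCI-LY3 minus that in SU-DHL6, is balanced over treatment. The rule touched it through the minimum of 5 FPKM in the highest group. The 0.5 FPKM added also bears on it, since it lowers the ratio of a gene that is low in a line. The line average was tested with edgeR's quasi-likelihood test on the counts of all 16474 genes that passed a filter on low counts. All 30 genes were among them, and a gene was called at a Benjamini-Hochberg adjusted p under 0.05. Of all genes tested, 38% were called higher in OCI-LY3 and 38.3% higher in SU-DHL6. A call in either direction was thus common, and the counts that follow set the 30 genes apart in no way. The minimum was reached in both lines by 19 of the 30 genes, of which 10 were higher in OCI-LY3, 5 were higher in SU-DHL6 and 4 were not called. It was reached in OCI-LY3 only by 7 genes (CRIP1, CTSO, GSN, MDK, MYCL, SH3TC1 and TNFAIP8L2) and in SU-DHL6 only by 4 (AL662899.2, FAM13B, LRRC8D and MFSD1). For these 11 the minimum itself favours the line that reached it, so their line averages are given without a test.

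Among the 19 genes, the largest line averages toward OCI-LY3 were those of S100A11 (log2 difference 3.64 ± 0.10, SE, adjusted p = 2.34e-13 in edgeR), NGFR (2.85 ± 0.21, adjusted p = 1.2e-08) and LGALS1 (2.57 ± 0.11, adjusted p = 2.52e-11). TRIM21 at 1.79 ± 0.09 and PHYH at 1.48 ± 0.12 followed. The value of NGFR rests in part on the 0 to 4 counts of untreated SU-DHL6 and on the small count the fit adds to them. Toward SU-DHL6 the largest were EIF4EBP3 (-2.04 ± 0.14, adjusted p = 6.3e-09), TRIM38 (-1.57 ± 0.10) and TRIM22 (-1.11 ± 0.08). MVP (-0.01 ± 0.10), TRIM8 (0.09 ± 0.08) and GLIPR1 (-0.10 ± 0.08) had differences near 0, and CIPC had 0.56 with an SE of 0.57. With library totals in place of TMM factors, 7 of the 19 were higher in OCI-LY3 and 7 in SU-DHL6, and ARRDC3, C15orf62 and KAT2A lost their call while GLIPR1 and MVP gained one toward SU-DHL6. The 7 genes that reached the minimum in OCI-LY3 only had line averages of 1.97 (CTSO) to 6.11 (MDK), and the 4 that reached it in SU-DHL6 only had -1.38 (AL662899.2) to -0.55 (LRRC8D).

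**Figure D4:**
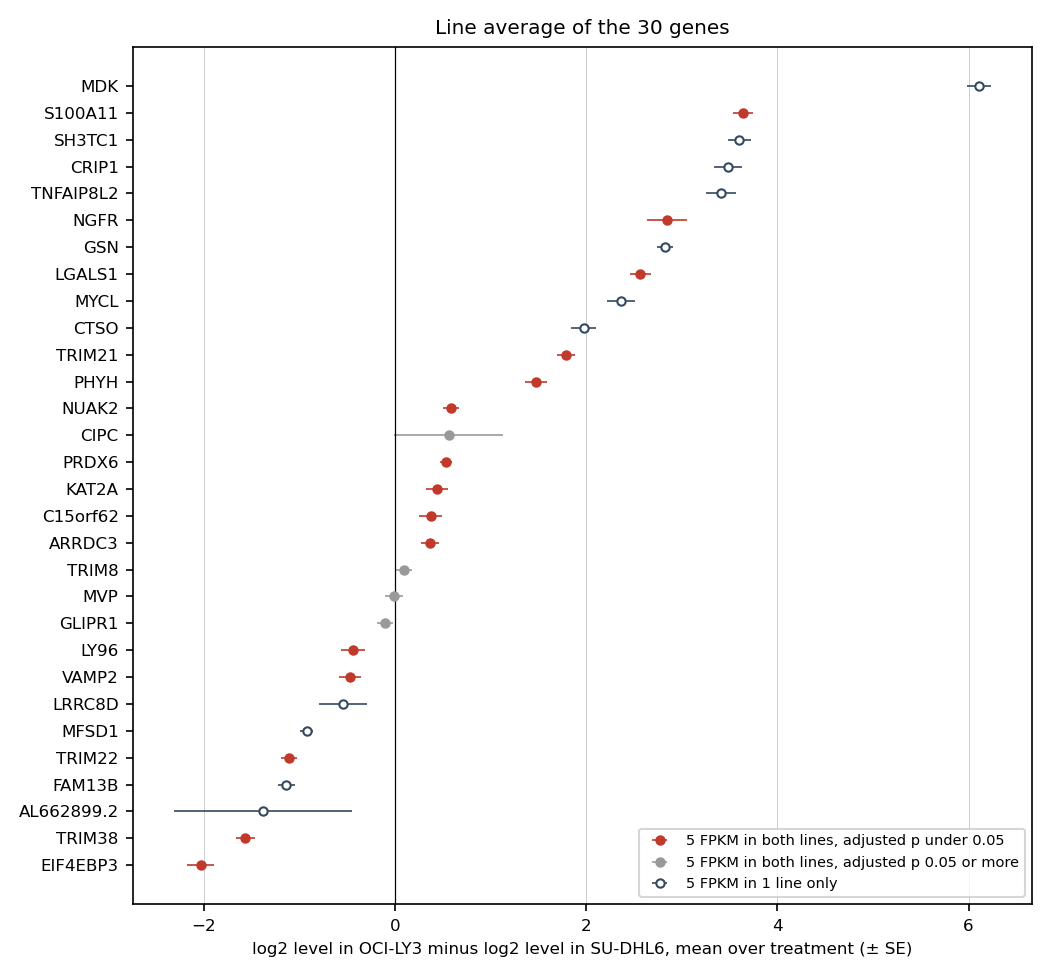
Line average of the 30 genes, the log2 level in OCI-LY3 minus that in SU-DHL6 over treated and untreated libraries (edgeR, TMM factors); bars are ± SE. Filled points reached 5 FPKM in both lines, red where the adjusted p was under 0.05 and grey where it was not, and open points reached it in 1 line only; among filled points, S100A11 lies at 3.64 and EIF4EBP3 at -2.04.

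The size of the response was set against the other line as the log2 response in OCI-LY3 minus that in SU-DHL6, in the same fit. It comes from the values that chose the genes, and a ratio of 2 or more in both lines bounds both of its terms, so the differences are given as a description with their SE. At an adjusted p under 0.05 in edgeR, 12 genes fell on the OCI-LY3 side and 2 on the SU-DHL6 side, beside 19.9% and 17% of all genes tested, and nothing is read from these counts. They moved with the scaling: with library totals only, they were 5 and 7.

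GSN had the largest difference toward OCI-LY3, at 2.15 ± 0.16 on the log2 scale with TMM factors and 1.77 ± 0.17 with library totals. TRIM22 followed at 1.90 ± 0.17, S100A11 at 1.56 ± 0.21, MVP at 1.03 ± 0.19 and NUAK2 at 0.88 ± 0.17 with TMM factors. Toward SU-DHL6, ARRDC3 had -0.77 ± 0.19. NGFR had -2.74 ± 0.47, with a fitted response of 6.35 ± 0.22 in OCI-LY3 and 9.09 ± 0.30 in SU-DHL6. The SU-DHL6 figure rests on the 0 to 4 untreated counts and on the small count the fit adds to them, whereas the FPKM ratios of NGFR with 0.5 added were alike in both lines. These 7 genes were past the same adjusted p, in the same direction, under both scalings. That p describes how the fit moved with the scaling and is no test of these genes, whose responses chose them.

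LY96, TNFAIP8L2, GLIPR1, PRDX6, TRIM8, MFSD1 and FAM13B had differences of 0.96, 0.94, 0.77, 0.64, 0.57, 0.52 and 0.47 toward OCI-LY3 with TMM factors, and were past that p with TMM factors but not with library totals. Without replicate 3 of untreated SU-DHL6, TRIM8 also fell short of it. FAM13B did so with the replicate block, with no filter, with limma-voom and without any single library other than replicates 2 and 3 of untreated SU-DHL6. TNFAIP8L2 did so with the replicate block and without any single library other than replicate 2 of treated or untreated OCI-LY3 and replicate 1 of treated or untreated SU-DHL6. CTSO, EIF4EBP3, MDK, PHYH and SH3TC1 were past it toward SU-DHL6 with library totals only. The differences of CIPC (0.12 ± 1.14) and AL662899.2 (0.47 ± 1.85) were too poorly measured to place.

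**Figure D5:**
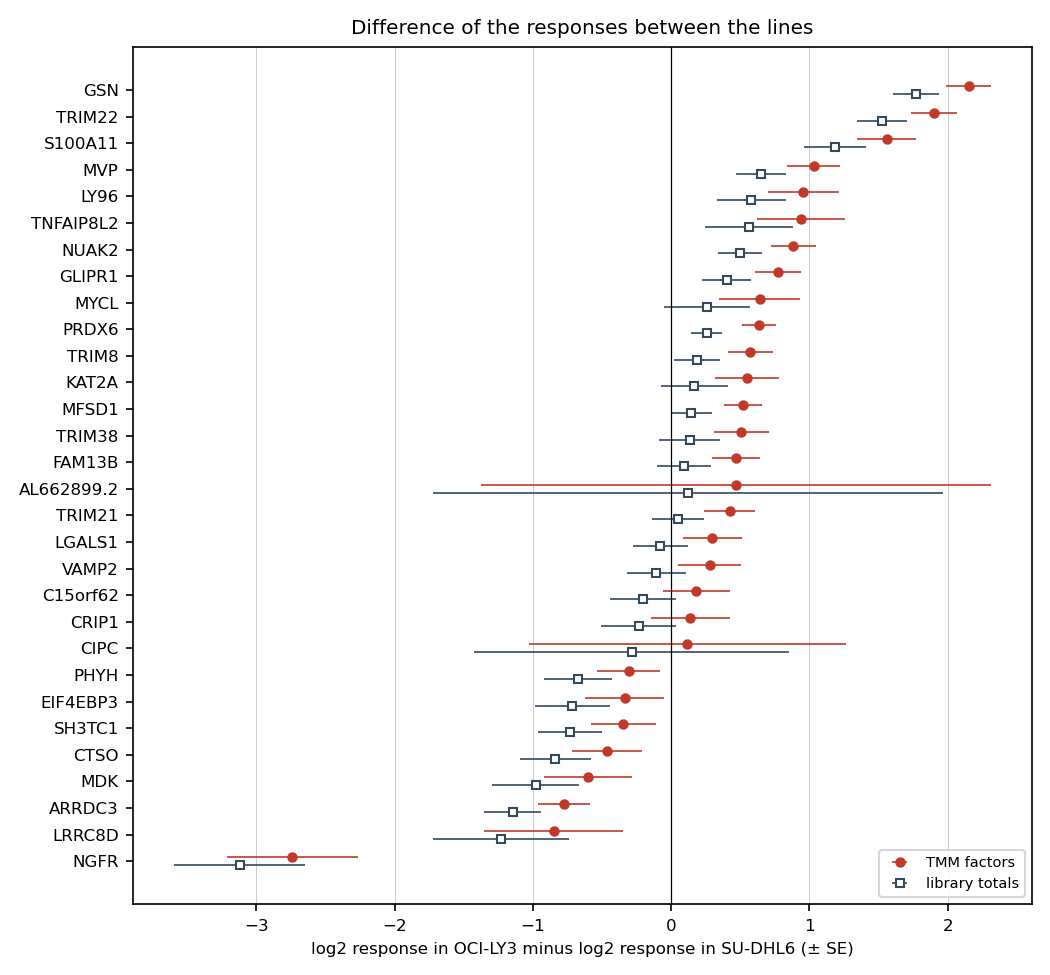
Difference of the log2 response to selinexor, OCI-LY3 minus SU-DHL6, for the 30 genes with TMM factors (red circles) and with library totals (open squares); bars are ± SE. Every square lies to the left of its circle, GSN, TRIM22 and S100A11 stay far right of 0 under both, and NGFR and ARRDC3 stay left of it.

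Promoter sequences were taken from RefSeq (build GRCh38.p14), from 250 bases before to 50 after the gene start, for the 20 of the 30 genes with an entry. Those of ARRDC3, CIPC, S100A11 and MVP are shown because, of the genes with an entry, these rank highest by the lesser of their ratios in OCI-LY3 and SU-DHL6. Letters in capitals match one of the motifs named below, on either strand. The sequences lie at chr5:91383268-91383567 on the minus strand (ARRDC3), chr14:77098008-77098307 on the plus strand (CIPC), chr1:152036955-152037254 on the minus strand (S100A11) and chr16:29820144-29820443 on the plus strand (MVP).
ARRDC3: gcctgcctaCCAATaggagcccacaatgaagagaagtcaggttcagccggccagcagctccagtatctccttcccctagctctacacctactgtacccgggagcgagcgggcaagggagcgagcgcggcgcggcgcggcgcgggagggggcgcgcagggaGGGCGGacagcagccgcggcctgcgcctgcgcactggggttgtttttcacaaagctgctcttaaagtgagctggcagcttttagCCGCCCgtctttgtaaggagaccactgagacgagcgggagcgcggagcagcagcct
CIPC: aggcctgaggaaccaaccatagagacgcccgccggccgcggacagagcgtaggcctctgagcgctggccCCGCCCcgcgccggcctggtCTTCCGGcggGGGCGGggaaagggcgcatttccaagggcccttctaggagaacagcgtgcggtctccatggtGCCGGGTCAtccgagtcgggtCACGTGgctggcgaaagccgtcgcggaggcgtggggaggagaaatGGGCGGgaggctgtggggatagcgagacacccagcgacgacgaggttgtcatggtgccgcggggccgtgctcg
S100A11: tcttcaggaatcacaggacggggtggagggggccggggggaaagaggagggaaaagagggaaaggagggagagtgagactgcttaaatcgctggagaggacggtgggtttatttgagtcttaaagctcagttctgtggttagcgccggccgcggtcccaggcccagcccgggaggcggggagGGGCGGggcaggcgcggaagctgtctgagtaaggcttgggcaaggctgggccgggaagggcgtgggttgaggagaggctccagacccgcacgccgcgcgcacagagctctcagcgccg
MVP: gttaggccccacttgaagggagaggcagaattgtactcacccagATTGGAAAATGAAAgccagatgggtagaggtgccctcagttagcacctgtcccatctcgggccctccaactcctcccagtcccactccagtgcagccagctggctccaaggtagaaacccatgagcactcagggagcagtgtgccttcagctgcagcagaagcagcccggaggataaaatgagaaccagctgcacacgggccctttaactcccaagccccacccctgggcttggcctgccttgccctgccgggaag
The windows of ARRDC3, CIPC and S100A11 hold the GC box GGGCGG, which 13 of the 20 windows (65.0%) and 72.4% of those of 4854 expressed genes hold. ARRDC3 and MVP hold the letters CCAAT, CIPC holds the E-box CACGTG 68 bases before the start, the ETS letters CCGGAAG and the antioxidant letters TGACNNNGC, and MVP holds GAAAATGAAA 202 bases before the start.

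That last match is to the core of the interferon-stimulated response element, searched as GAAA, any 2 bases and GAAA on both strands. MVP, TRIM21 and MFSD1 hold it, which is 3 of 20 windows (15%), against 2.93% of expressed and 3.65% of all 27305 RefSeq windows. TRIM21 holds it at GAAACTGAAA and GAAAGTGAAA after its start site, and MFSD1 at GAAACGGAAA 202 bases before it. Of the other motifs, the ETS letters were in 1 of 20 windows (5.0%) against 22.8% of expressed windows, CCAAT in 35.0% against 37.8%, the E-box in 15% against 11.9%, the TATA box TATAAA in 10.0% against 5.32%, and the antioxidant letters in 15% against 16.2%. The letters TGACG were in 40% against 37.2%, the gamma-activated site TTCNNNGAA in 10.0% against 5.67%, the AP-1 site TGANTCA in 5.0% against 3.96% and the p53 decamer in 5.0% against 5.17%. No window held the full CRE TGACGTCA, the FOXO letters GTAAACA, the E2F letters TTTCCCGC, the heat shock element or the NF-kB site, which 3.63%, 2.04%, 3.15%, 0.288% and 0.350% of expressed windows hold. The motifs overlap in part, since TGACG lies within the full CRE, and a match describes letters only. Median GC content was 65.8% in the 20 windows and 65.3% in those of expressed genes.

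In the annotation, the 30 genes had a median span of 18.8 kb and 7 merged exons, against 26.5 kb and 10 exons for the other expressed genes. They lay on 15 chromosomes, with 6 on chromosome 1. Of the 58 expressed genes next to them, 3 were doubled in OCI-LY3, 2 in SU-DHL6 and 0 in both. Exon bases were shared with another gene by 20 of the 30 genes, and for 10 of these the other gene reached 1 FPKM in some group.

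Of 15 lists of pathway genes, 4 hold 1 of the 30 genes each, TRIM22 stands on 2 of them, and the other 11 hold none. In edgeR's test 22.2% of all genes rose and 22.2% fell with selinexor in OCI-LY3, and 20.4% rose and 22.8% fell in SU-DHL6. Of 34 tested p53 target genes, TRIM22 included, 26 rose and 1 fell in OCI-LY3, and 4 rose and 13 fell in SU-DHL6, with median log2 changes of 0.94 and -0.10. The SU-DHL6 median was 0.16 with library totals, where 11 rose and 11 fell. CDKN1A, a cyclin-dependent kinase inhibitor, rose by 1.18 ± 0.11 (log2, SE) in OCI-LY3 and fell by 2.77 ± 0.12 in SU-DHL6, and FAS, a death receptor, rose by 3.04 ± 0.30 and fell by 1.83 ± 0.43.

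Of 31 interferon-stimulated genes tested, TRIM22 included, 13 rose and 8 fell in OCI-LY3, and 11 rose and 2 fell in SU-DHL6, with 7 rising in both. Their median log2 changes were 0.48 and 0.60. With library totals, 18 rose and 1 fell in SU-DHL6, with a median of 0.865. The 8 falling in OCI-LY3 were 3 without replicate 3 of untreated OCI-LY3, replicate 1 or replicate 2 of treated OCI-LY3, and 5 without replicate 1 or replicate 2 of untreated OCI-LY3 or with no filter. ISG15, a ubiquitin-like modifier, rose by 0.84 ± 0.19 in OCI-LY3 and 0.96 ± 0.20 in SU-DHL6, whereas OAS1, a sensor of double-stranded RNA, rose by 2.89 ± 0.15 in OCI-LY3 and had 0.23 ± 0.14 in SU-DHL6. Of 34 FOXO target and quiescence genes tested, ARRDC3 included, 15 rose and 3 fell in OCI-LY3, and 13 rose and 1 fell in SU-DHL6, with 7 rising in both and 0 falling in both. With library totals, 14 of them rose and 5 fell in OCI-LY3, and 18 rose and 1 fell in SU-DHL6. TXNIP, an alpha-arrestin that restrains glucose uptake, rose by 0.63 ± 0.11 in OCI-LY3 and 1.82 ± 0.11 in SU-DHL6. Of 27 ubiquitin ligase and F-box genes tested, TRIM38 included, 9 rose and 5 fell in OCI-LY3, and 9 rose and 6 fell in SU-DHL6, with 2 rising in both. With library totals, 6 of them rose and 6 fell in OCI-LY3, and 12 rose and 3 fell in SU-DHL6. Over all genes tested, 981 rose in both lines and 1454 fell in both.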

How the data were processed

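RNA sequencing libraries of 4 groups with 3 libraries each were analysed, grouped by their titles. The table the authors deposited gives whole-number counts and FPKM values for 58302 genes per library, per the file headers; aligner, counting program and strandedness: not given in the sources used here. Mouse builds (GRCm38, mm10) stand in the submitters' processing notes, but the gene identifiers are human, and 58039 were found in GENCODE release 29 (GRCh38), 97.5% of them with the same coordinates. The deposited FPKM values follow from the counts, since the gene length they imply varied by at most 1.000019 times across libraries (9162 genes of 50 or more counts). Library totals of 14210200 to 16405842 counts limit precision for genes with few counts.

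Group means of FPKM were compared with 0.5 added. Counts were tested with edgeR 4.0.16 in R 4.3.3 (filterByExpr by group, TMM factors, 1 coefficient per group, robust quasi-likelihood F test, Benjamini-Hochberg adjustment over 16474 genes, called at an adjusted p under 0.05). SE is the log2 value divided by the square root of F. The fit was tested on simulated data. Alternatives were library totals, DESeq2 1.42.0 and its size factors, limma-voom (limma 3.58.1), no filter, the replicate number as a block, and each library left out. Members, gene lists and tests were chosen with earlier results of these data known. Named genes were the 20 with the largest lesser ratio, the 10 with the highest treated FPKM, up to 5 per direction for each test, those on a gene list and those nearest the threshold. The line average was counted apart for genes that reached 5 FPKM in both lines, a split made after its values were seen. Promoters came from RefSeq. Some genes are not analysed here.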

Additional observations from a re-analysis of the deposited data

Results flagged for a closer look

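The difference of the responses between the lines passed an adjusted p of 0.05 in edgeR for 12 of the 30 genes toward OCI-LY3 and 2 toward SU-DHL6, beside 19.9% and 17% of all genes tested. The genes were chosen by these responses, so the difference is not independent of the choice. As log2 response in OCI-LY3 minus log2 response in SU-DHL6, these were GSN (2.15), TRIM22 (1.90), S100A11 (1.56), MVP (1.03), LY96 (0.96), TNFAIP8L2 (0.94), NUAK2 (0.88), GLIPR1 (0.77), PRDX6 (0.64), TRIM8 (0.57), MFSD1 (0.52) and FAM13B (0.47), and, larger in SU-DHL6, NGFR (-2.74) and ARRDC3 (-0.77). With library totals in place of TMM factors, LY96, TNFAIP8L2, GLIPR1, PRDX6, TRIM8, MFSD1 and FAM13B did not pass it.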

How the results depend on the processing

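The rule gave 30 genes, 179 at a ratio of 1.5 and 6 at a ratio of 3. It gave 45 and 22 with 0.1 and 1 FPKM added, 40 and 23 with a minimum of 1 and 10 FPKM, 33 with group medians (27 shared), 31 with TMM-rescaled FPKM (22 shared) and 28 to 34 with each library left out. With library totals only, the difference of responses was called toward OCI-LY3 for 5 genes and toward SU-DHL6 for 7, where TMM gave 12 and 2. In SU-DHL6 that scaling called 5444 of all genes higher and 2369 lower with selinexor, where TMM called 3365 and 3758, and it moved the median log2 change of all genes to 0.265. In OCI-LY3 it called 2939 higher and 4387 lower, where TMM called 3664 and 3657. By construction the scaling shifts all genes of a line together. With the replicate block, the line average was called for 17 and 8 genes and the difference of responses for 10 and 2. Same-numbered deviations from the group means correlated at -0.183 to 0.022 and different-numbered ones at -0.159 to 0.155. With 3 libraries per group, this cannot settle whether the replicate numbers pair the libraries. With each library left out, the line average was called for 17 genes toward OCI-LY3 and 7 to 8 toward SU-DHL6, and the difference of responses for 10 to 13 and 2 to 3. The line-average counts here, also with the replicate block, are taken over all 30 genes. They thus take in the 11 genes for which the minimum of 5 FPKM favours 1 line. Beside them stand 38% and 38.3% of all genes tested, and nothing is read from these counts. Over all alternatives no result changed sign while called. Low counts limit NGFR, MDK, TNFAIP8L2 and S100A11 in untreated SU-DHL6.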

Other observations

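The same values, asked of genes the rule left out, were met by 4 of 20 clustered histone genes at the same minimum and by 19 of 1053 genes that are not protein-coding. Among the non-coding ones were RNAs made by RNA polymerase III. RN7SL2, the RNA of the signal recognition particle, averaged 109.7 FPKM in treated and 38.3 FPKM in untreated OCI-LY3, and 703 FPKM in treated and 73.4 FPKM in untreated SU-DHL6. RN7SK, which holds the elongation factor P-TEFb inactive, averaged 8.62 FPKM in treated and 4.004 FPKM in untreated OCI-LY3, and 57.4 FPKM in treated and 8.75 FPKM in untreated SU-DHL6. RN7SL genes have near-identical copies, so their values are uncertain. The treated SU-DHL6 libraries also scattered, at 738, 1206 and 166 FPKM for RN7SL2 and at 65.9, 70.4 and 35.9 FPKM for RN7SK.

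TRBC2, a constant segment of the T-cell receptor beta chain, averaged 61.7 FPKM in treated and 12.3 FPKM in untreated OCI-LY3, and 4.69 FPKM in treated and 0.744 FPKM in untreated SU-DHL6. Of the 5 T-cell markers, CD5 alone reached 1 FPKM, in OCI-LY3, at 4.46 FPKM in treated and 8.68 FPKM in untreated cells. Among histone genes, HIST1H2BD averaged 31.6 FPKM in treated and 4.22 FPKM in untreated OCI-LY3, and 9.71 FPKM in treated and 1.83 FPKM in untreated SU-DHL6.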
